A study of Mus musculus with 6 samples.

Results

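The 9 genes described here encode the cytosolic enzymes of the pentose phosphate pathway and a pair of other NADPH-making enzymes of the same compartment. The 9 are a fixed list of names with no threshold on values, drawn up with other results of these data known, and all 9 were found among the 55291 gene symbols of the tables. G6pdx, Pgls and Pgd form the oxidative arm, Rpia, Rpe, Taldo1 and Tkt the non-oxidative arm, and Me1 and Idh1 lie outside the pathway. They were followed in 6 RNA sequencing libraries of RAW264.7, a mouse macrophage-like cell line of ascites origin that forms osteoclasts under RANKL, the cytokine that drives the lineage. All 6 libraries came from cells given 4 days of RANKL (50 ng/mL). One group, shCtrl (n = 3, genotype label WT), carried a control short hairpin RNA, and the other, shUSP8 (n = 3, genotype label USP8 Knock Down), a hairpin against Usp8, which encodes an endosomal deubiquitinating enzyme. The hairpin sequences, and whether the cells were clones or pools or the libraries separate cultures, are not given in the sources used here, so the error behind each p-value is that between libraries and may be technical only.

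The pentose phosphate pathway branches from glycolysis at glucose 6-phosphate. Its oxidative arm makes NADPH and releases a carbon as CO2, and its non-oxidative arm passes sugar units to and fro between ribose 5-phosphate, the sugar of nucleotides, and intermediates of glycolysis. NADPH is the electron donor for glutathione and thioredoxin reductases, for lipid synthesis and, in phagocytes, for the oxidase that makes superoxide.

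Library totals lay between 19973522 and 20213939 expected counts, the estimated number of fragments per gene summed over genes. Usp8 had 2785, 2561 and 2645 counts in shCtrl and 656, 720 and 718 in shUSP8, so the groups did not overlap (135.7 ± 5.86 against 33.9 ± 1.68 CPM, SD, where CPM is the count scaled by library size with TMM factors; edgeR adjusted p = 1.47e-10). The osteoclast markers Acp5 and Ctsk had means of 3132 and 5024 TPM (transcripts scaled for length and library) in shCtrl and 2734 and 4978 in shUSP8. The macrophage markers Csf1r and Cd68 had 771 and 2234 TPM in shCtrl and 716 and 1923 in shUSP8. Of 10 osteoclast markers 5 fell and none rose (sums of 9986 to 10860 and 9453 to 9795 TPM). With edgeR 1 was higher at an unadjusted p under 0.05, and DESeq2 called 0 higher. On log2(TPM + 1), 3 were called lower and 1 higher, and Ctsk lost its call under 14 of 19 alternative settings. Of all genes tested, 14.9% were called lower and 17.8% higher, the shares to set beside this list and the macrophage list. Of 10 macrophage markers 5 rose and 3 fell, with sums of 4722 to 5051 and 6838 to 7381 TPM. Without Lyz2, named after its values were seen (939 and 3277 TPM), the other 9 summed to 3800 to 4056 and 3738 to 4009, which overlap. Cd68 had the highest TPM of these 9 and fell, so the sum hides rises of markers at lower levels. The other markers called higher, also named afterwards, were Cd14 (log2 fold change 1.71), Adgre1 (0.93), Itgam (0.64) and Fcgr1 (2.96). Those called lower were Csf1r (-0.19), Cd68 (-0.36) and Spi1 (-0.26). Among the lymphocyte markers, Cd3d, Cd3e, Cd8a, Ms4a1 and Nkg7 were at 0 in every library, and the list summed to 1.58 to 2.41 and 3.17 to 4.17. The 1 lymphocyte marker tested, Lck, named after its values were seen, was called higher (log2 fold change 0.87). Of 8 neutrophil markers, Elane, Ly6g and Camp were at 0 throughout, with sums of 6.08 to 7.92 and 15.6 to 17.4. All 3 neutrophil markers tested, named after their values were seen, were called higher, beside 17.8% of all genes tested. They were Csf3r (log2 fold change 1.75), Cebpe (1.04) and S100a8 (1.025), the last not called with DESeq2 (adjusted p = 0.236). The 8 stromal markers summed to 2.75 to 4.05 and 2.46 to 3.68. The part of these marker shifts in the results below was not tested. In bulk RNA, a shift in the mix of cell states and a shift in RNA per cell cannot be told apart. The mean fragment length was estimated as 367.2 nt in shUSP8_2 and 300.3 ± 6.29 nt (SD) over the other 5 libraries. It was inferred from counts, TPM and transcript lengths of single-transcript genes and was not measured directly.

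Transcripts of these enzymes were higher in the cells with reduced Usp8. Of the 9, 7 rose (G6pdx, Pgd, Rpia, Taldo1, Tkt, Me1 and Idh1), none fell, and Pgls and Rpe did not pass the test (edgeR, adjusted p under 0.05). Among all 12440 genes tested, 17.8% were called higher and 14.9% lower, 32.8% in all. At an unadjusted p under 0.05, and with DESeq2, the count of enzymes lower in shUSP8 was also 0. The rises ran from 2.93-fold for G6pdx, the entry enzyme, to 1.17-fold for Rpia. The median log2 fold change of the 9 was 0.37, beside -0.0049 over all genes tested. Every shUSP8 library lay above every shCtrl library for all 9 enzymes in TPM and for 8 in CPM, against 33.8% and 24.6% of all tested genes. Of all genes called, 54.4% were higher under TMM scaling. That share was 72.6% when only library totals were used and 82.5% on log2(TPM + 1), where the median gene was shifted by 0.12 toward shUSP8. All 9 passed the filter on low counts, and each passed it in either group alone.

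**Figure D1:**
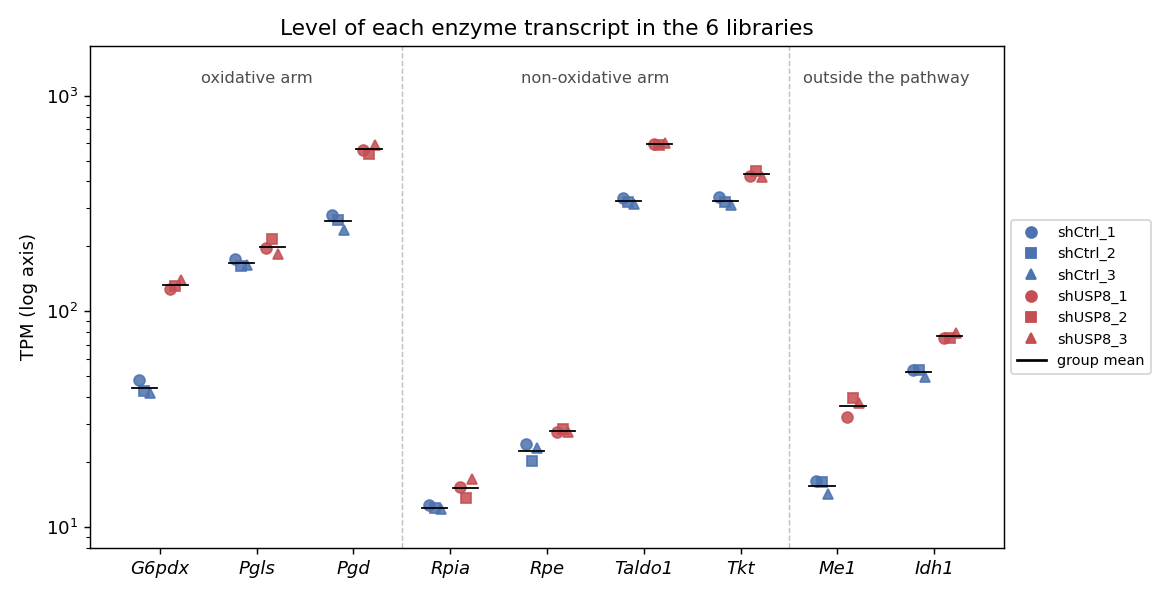
TPM (log axis) of the 9 enzyme transcripts in each library, with blue for shCtrl, red for shUSP8, a symbol for each replicate number and a black line for the group mean. For G6pdx the shUSP8 libraries sit at 127.2 to 140.1 TPM and the shCtrl libraries at 41.8 to 47.7, whereas for Pgls the gap between groups is narrow (175.4 against 185.1 TPM).

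G6pdx encodes glucose-6-phosphate dehydrogenase, which commits glucose 6-phosphate to the pathway and makes its first NADPH. The gene lies on chromosome X at 74409483 to 74429194, minus strand (GRCm38), and is protein coding. Its level was 47.7, 42.5 and 41.8 TPM in shCtrl and 127.2, 130.6 and 140.1 TPM in shUSP8. The lowest shUSP8 library was thus far above the highest shCtrl library. The fitted change was the largest of the 9, with a log2 fold change of 1.55 (SE 0.05, adjusted p = 5.80e-10), and G6pdx ranked 36 by p among the genes tested.

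G6pdx has a retroposed copy, G6pd2, and the coding sequences of both are shown because reads that fall between mismatches could be counted for either gene. Aligned transcripts were 93.2% identical over 2332 bases. Coding bases 1 to 60 of each GENCODE M21 transcript follow, 5′ to 3′, with the 3 bases that differ in capitals.
G6pdx: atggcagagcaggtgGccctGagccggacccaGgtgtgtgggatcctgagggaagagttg
G6pd2: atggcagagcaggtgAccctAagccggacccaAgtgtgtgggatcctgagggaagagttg
G6pd2 received 0, 1 and 0 counts in shCtrl and 3, 1 and 0 in shUSP8, against 1525 or more for G6pdx in every library. G6pdx also overlaps Ikbkg, a gene of the NF-kB pathway on the opposite strand, and strand use in counting is not given in the sources used here. Ikbkg had 2069, 2168 and 2002 counts in shCtrl and 1996, 2012 and 2064 in shUSP8, ranges that overlap while those of G6pdx do not.

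Pgls, 6-phosphogluconolactonase, opens the lactone that G6pdx makes (chromosome 8, 71592176 to 71601092, plus strand). It was at 175.4, 162.3 and 164.4 TPM in shCtrl and 197.2, 215.7 and 185.1 TPM in shUSP8. In CPM the groups overlapped, with 92.8, 89.3 and 93.3 in shCtrl and 102.1, 101.0 and 89.9 in shUSP8. The low library was shUSP8_3. The log2 fold change of 0.09 (SE 0.06) did not pass the test (adjusted p = 0.269). Pgls overlaps Fam129c on the same strand, which had 36.5 to 68.8 counts against 1768 to 2093. The change in Pgls passed on log2(TPM + 1) (0.25, adjusted p = 0.0416), log2(TPM + 0.1) (0.25, 0.0428) and library totals (0.16, 0.0490).

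Pgd, 6-phosphogluconate dehydrogenase, makes the arm's other NADPH and releases CO2 (chromosome 4, 149149991 to 149166771, minus strand). It had 8872, 8698 and 8090 counts in shCtrl and 17940, 16348 and 17938 in shUSP8. In TPM this was 279.3, 264.5 and 238.9 against 557.6, 537.8 and 592.9, with a wide gap between the groups. The log2 fold change was 0.96 (SE 0.06, adjusted p = 1.16e-07), a 1.94-fold rise. In shCtrl Pgd was already above 95.96% of tested genes in TPM.

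Within the oxidative arm, G6pdx gained on Pgd in these libraries. Pgd TPM divided by G6pdx TPM was 5.85, 6.23 and 5.72 in shCtrl and 4.39, 4.12 and 4.23 in shUSP8, ranges that did not overlap. A two-sided exact permutation test gave p = 0.1, the smallest that 3 against 3 allows. This ratio and the pair of ratios below were chosen after the values were seen. Their p-values are unadjusted and make no allowance for that choice.

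In the non-oxidative arm, the isomerase and the epimerase that act on ribulose 5-phosphate were low, with small differences between groups. Rpia, ribose-5-phosphate isomerase, makes ribose 5-phosphate (chromosome 6, 70765720 to 70792232, minus strand). It had 305, 311 and 295 counts in shCtrl and 390, 354 and 375 in shUSP8, without overlap. Its TPM was 12.6, 12.2 and 12.1 against 15.4, 13.6 and 16.6, the lowest of the 9 enzymes in both groups. The log2 fold change was 0.23 (SE 0.08, adjusted p = 0.0342). Leaving out shCtrl_1 ended the call (adjusted p = 0.0866), as did leaving out shCtrl_2 (0.0806), shCtrl_3 (0.0903), shUSP8_1 (0.0848) or shUSP8_3 (0.0873). It was also lost with DESeq2 (0.153), effective-length offsets (0.206), no filter on low counts (0.0557) and log2(TPM + 1) (0.0553).

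Rpe, ribulose-5-phosphate epimerase, makes xylulose 5-phosphate, the donor for transketolase (chromosome 1, 66700831 to 66719805, plus strand). It was at 24.2, 20.2 and 23.1 TPM in shCtrl and 27.6, 28.3 and 27.6 TPM in shUSP8. The groups lay close together but did not overlap. The log2 fold change of 0.15 (SE 0.06) missed the threshold (adjusted p = 0.0812). It passed without shUSP8_1 (0.18, adjusted p = 0.0385), with library totals (0.22, 0.0152), on log2(TPM + 1) (0.30, 0.0345) and on log2(TPM + 0.1) (0.31, 0.0347). Rpe overlaps Kansl1l on the other strand, which had 73.1 to 111.5 counts against 636.9 to 779.9 for Rpe.

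Taldo1 and Tkt encode the carbon-shuffling enzymes of the arm. Taldo1, transaldolase, moves a dihydroxyacetone unit between sugars (chromosome 7, 141392199 to 141402968, plus strand). It stood at 335.2, 319.3 and 314.7 TPM in shCtrl and 596.1, 590.9 and 602.7 TPM in shUSP8. The spread within each group was small beside the gap. The log2 fold change was 0.74 (SE 0.05, adjusted p = 2.50e-07), a 1.67-fold rise. Tkt, transketolase, moves a glycolaldehyde unit and needs thiamine diphosphate (chromosome 14, 30548359 to 30574720, plus strand). It stood at 337.6, 320.5 and 311.0 TPM in shCtrl and 425.3, 448.0 and 420.5 TPM in shUSP8. The groups were apart here too, and the log2 fold change was 0.31 (SE 0.05, adjusted p = 5.34e-04).

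Both enzymes had nearly the same TPM in shCtrl, and Taldo1 exceeded Tkt in shUSP8. Taldo1 over Tkt was 0.993, 0.996 and 1.01 in shCtrl and 1.40, 1.32 and 1.43 in shUSP8 (two-sided exact permutation p = 0.1, the smallest possible). Pgd over Tkt went from 0.807 ± 0.034 to 1.31 ± 0.105 (SD, n = 3 per group; exact permutation p = 0.1). Pgd was below Tkt in every shCtrl library and above it in every shUSP8 library.

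Me1, cytosolic malic enzyme, turns malate into pyruvate while making NADPH (chromosome 9, 86581371 to 86695953, minus strand). It was at 16.3, 16.2 and 14.1 TPM in shCtrl and 32.5, 39.4 and 37.6 TPM in shUSP8. All 3 shUSP8 libraries were well above shCtrl. The log2 fold change was 1.07 (SE 0.07, adjusted p = 1.16e-07), the next largest after that of G6pdx. Me1 shares long stretches with the pseudogene Gm7049 (98.4% over 1716 bases) and the non-coding Gm48795 (98.7% over 1159 bases). These had 8.14 to 25.0 and 6.86 to 43.9 counts, against 718.3 to 1775 for Me1. How well the counting told them apart was not tested.

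Idh1, the cytosolic and peroxisomal isocitrate dehydrogenase, makes NADPH from isocitrate (chromosome 1, 65158616 to 65186500, minus strand). It was at 53.3, 53.1 and 49.6 TPM in shCtrl and 74.8, 75.0 and 79.5 TPM in shUSP8. The groups did not overlap, and the log2 fold change was 0.37 (SE 0.05, adjusted p = 8.07e-05). Its rise was of the size of that of Tkt and smaller than that of Me1, a difference in fitted values that was not tested.

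**Figure D2:**
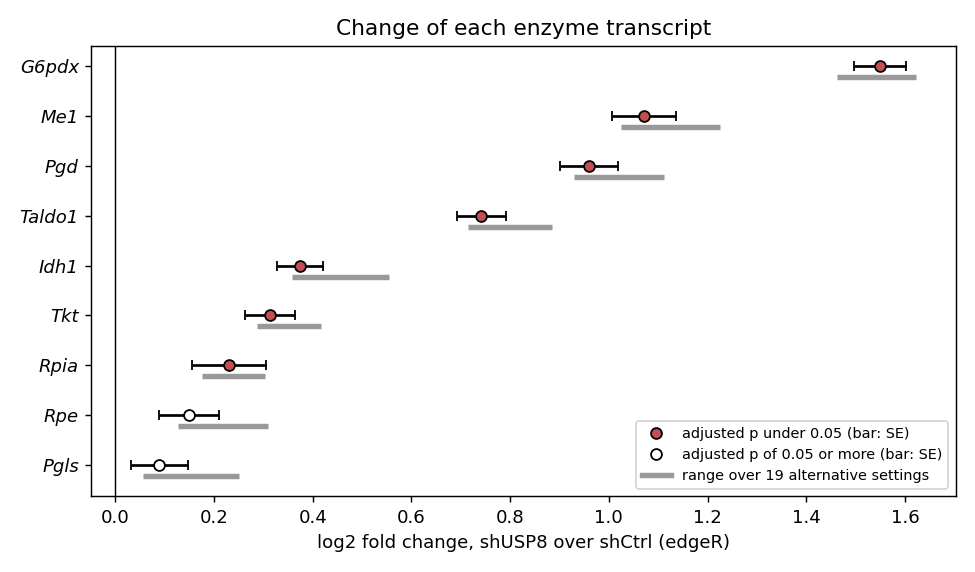
Log2 fold change of each enzyme (shUSP8 over shCtrl, edgeR) with its SE. Filled points passed an adjusted p of 0.05, open points did not, and grey bars span the values under 19 alternative settings. G6pdx (1.55), Me1 (1.07), Pgd (0.96) and Taldo1 (0.74) stand above the rest, and no grey bar crosses 0.

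By level, the order in shCtrl was Taldo1 (323.1 ± 10.7 TPM, SD, n = 3), Tkt (323.0 ± 13.5), Pgd (260.9 ± 20.5), Pgls (167.4 ± 7.05), Idh1 (52.0 ± 2.10), G6pdx (44.0 ± 3.26), Rpe (22.5 ± 2.04), Me1 (15.5 ± 1.21) and Rpia (12.3 ± 0.28). Taldo1 and Tkt were the only neighbours whose libraries overlapped. In shUSP8 the order was Taldo1 (596.5 ± 5.91 TPM), Pgd (562.8 ± 27.9), Tkt (431.3 ± 14.7), Pgls (199.3 ± 15.4), G6pdx (132.6 ± 6.69), Idh1 (76.4 ± 2.68), Me1 (36.5 ± 3.61), Rpe (27.8 ± 0.43) and Rpia (15.2 ± 1.52). There, the neighbours that overlapped were Taldo1 and Pgd. Pgd passed Tkt, G6pdx passed Idh1 and Me1 passed Rpe. G6pdx, which catalyses the committed step, took 3.60% of the TPM of the 9 enzymes in shCtrl and 6.38% in shUSP8.

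Summed TPM of the oxidative arm was 502.5, 469.3 and 445.0 in shCtrl and 882.0, 884.0 and 918.0 in shUSP8, a 1.89-fold difference of means. The non-oxidative arm summed to 709.5, 672.2 and 660.9 in shCtrl and 1064, 1081 and 1067 in shUSP8, or 1.57-fold. Me1 and Idh1 together gave 69.6, 69.3 and 63.7 against 107.2, 114.4 and 117.1, or 1.67-fold. Both arms thus carried more transcript in every shUSP8 library. The ratio of oxidative to non-oxidative TPM was 0.693 ± 0.018 (SD, n = 3) in shCtrl against 0.836 ± 0.022 (SD, n = 3) in shUSP8, with no overlap. All 9 together held 0.122% ± 0.0057 of all TPM in shCtrl and 0.208% ± 0.0025 in shUSP8. These sums are descriptions of a chosen set and carry no test.

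**Figure D3:**
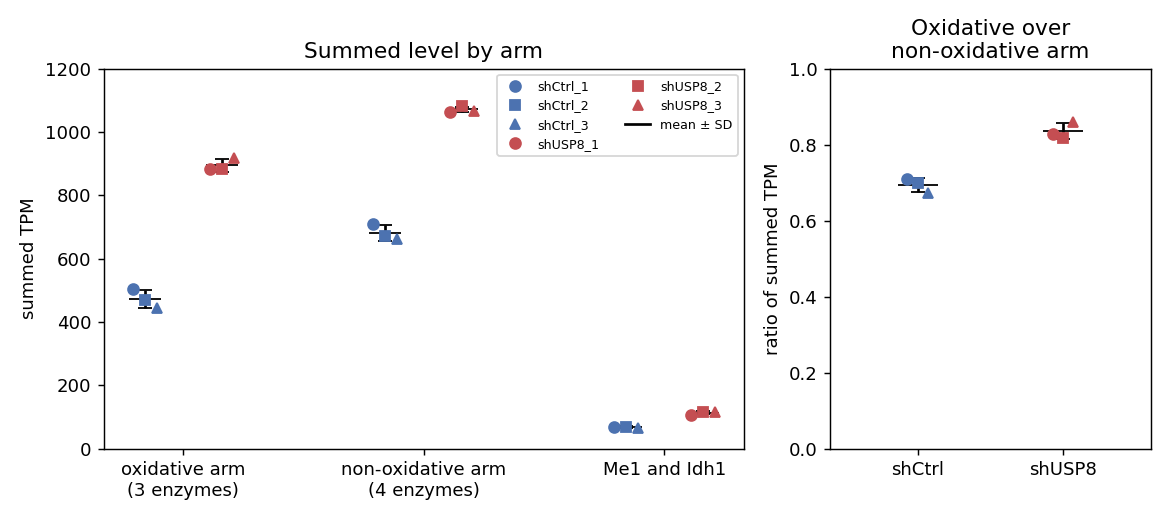
Left, summed TPM of the oxidative arm, the non-oxidative arm and Me1 with Idh1 in each library; right, the ratio of the oxidative to the non-oxidative sum. Points are libraries and black bars are group means with SD. The ratio sits at 0.673 to 0.708 in shCtrl and 0.818 to 0.860 in shUSP8.

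The promoters of the enzymes were searched because several of them are textbook targets of NRF2, a transcription factor that answers oxidative stress through antioxidant response elements. RefSeq windows of 300 bases (GRCm38.p6, 250 before to 50 after each start) were found for all 9 genes, 12 windows in total. The core letters TGACNNNGC, on either strand, were present in 3 of the 12 windows, those of G6pdx, Me1 and an internal start of Pgd, and in 12.4% of all 32851 windows. By gene this was 3 of 9, beside 14.0% of all genes with a window. The matches in G6pdx and Me1, whose transcripts rose most, are shown 5′ to 3′ on the gene's strand with the match in capitals.
G6pdx, chrX:74428919-74428947, minus strand: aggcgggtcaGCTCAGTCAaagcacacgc
Me1, chr9:86695902-86695930, minus strand: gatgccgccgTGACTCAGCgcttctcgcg
The G6pdx match reads on the opposite strand of the gene and spans bases -57 to -49 from the RefSeq start at 74428880, which lies inside the longer GENCODE gene. The Me1 match spans bases -6 to 3 around its start and overlaps the AP-1 letters TGANTCA, present in 7.81% of all windows and in no other window of these genes. The E-box CACGTG (7.15% of all windows) was in none of the 12. The sterol regulatory element was searched as an exact string with no variants allowed, found in 30 of all 32851 windows (0.0913%). It was in none of the 12 either, but so rare a string would be missing from most sets of 12 windows. Its absence therefore cannot decide whether these promoters carry such an element. A match is a string of letters in a window and is no record of binding. Elements outside the 300 bases were not searched, so a window without a match does not show that a gene lacks one.

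Among relatives of the pathway, the oxidative enzyme of the endoplasmic reticulum rose, as G6pdx and Pgd did. Of 14 listed genes 10 were tested, of which 3 rose and 2 fell (median log2 fold change 0.19), against 17.8% and 14.9% of all genes tested. H6pd, which makes NADPH inside the reticulum, was at 6.86, 6.25 and 6.32 TPM in shCtrl and 12.8, 15.3 and 15.3 TPM in shUSP8. The groups were well separated (log2 fold change 0.98, SE 0.06, adjusted p = 1.52e-07). Dera, which cleaves deoxyribose 5-phosphate, fell by 0.39 (SE 0.06), and Prpsap1, a partner of the enzyme that activates ribose 5-phosphate for nucleotide synthesis, rose by 0.28 (SE 0.06). Pgm2, of the phosphoglucomutase family, rose by 0.19, a call lost without shCtrl_1 (adjusted p = 0.0509) or shCtrl_2 (0.0684). Prpsap2, named after its values were seen, fell by 0.21, a call lost without shCtrl_1 (0.0639), shCtrl_2 (0.0764), shCtrl_3 (0.128) or shUSP8_3 (0.147). The transketolase-like genes Tktl1 and Tktl2 had no counts in any library.

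Genes listed as other sources of NADPH were called higher at a share near that of all genes. The list is not of NADPH makers alone, since Nadk, which was called higher, makes NADP+. Of 13 listed genes, most of them mitochondrial or folate enzymes, 12 were tested, 2 rose and none fell (median -0.01). Among all genes tested, 17.8% were called higher and 14.9% lower. With edgeR, 1 was lower at an unadjusted p under 0.05, and DESeq2 called 0 lower. Me2, mitochondrial malic enzyme, named after its values were seen, had a log2 fold change of -0.14 (SE 0.06, adjusted p = 0.0975) and was called lower without shUSP8_2 (-0.19, 0.0297). Aldh1l2, a mitochondrial folate enzyme also named afterwards, was at 2.02, 2.77 and 4.93 TPM in shCtrl and 6.20, 7.98 and 6.42 TPM in shUSP8, without overlap. Its log2 fold change of 0.83 (SE 0.27) was the largest of the list and was not called (adjusted p = 0.0802). It was called without shCtrl_3 (1.14, 9.41e-04), with DESeq2 (0.82, 0.0321), limma-voom (0.88, 0.00929) and log2(TPM + 1) (0.94, 0.0314). Nadk, the cytosolic kinase that makes NADP+ from NAD+, was at 92.3, 85.6 and 81.3 TPM in shCtrl and 122.8, 119.2 and 117.4 TPM in shUSP8, a log2 fold change of 0.31 (SE 0.05, adjusted p = 4.79e-04). Mthfd1, a folate enzyme, rose by 0.16 (adjusted p = 0.0361), a call lost without shCtrl_2 (0.172), shCtrl_3 (0.0938), shUSP8_2 (0.0760) or shUSP8_3 (0.104). Idh2, the mitochondrial counterpart of Idh1, was named after its values were seen and had a log2 fold change of -0.11 (SE 0.05, adjusted p = 0.129).

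Several genes that handle citrate and malate, listed here as citrate and malate supply, fell. The list holds users as well as suppliers, so the falls are no measure of the supply to Idh1 and Me1. Of 7 tested, 5 fell and none rose (median -0.24), against 14.9% and 17.8% of all genes tested. The edgeR count of higher genes was 0 at an unadjusted p under 0.05 too, and 0 with DESeq2. Aco1 (0.01) and Slc25a10 (0.11), named after their values were seen, did not pass. Slc25a11, the mitochondrial oxoglutarate and malate carrier, fell by 0.41 (SE 0.06), Mdh1, cytosolic malate dehydrogenase, by 0.30 (SE 0.05), and Got1, an aminotransferase of the malate shuttle, by 0.27 (SE 0.05). Acly, which splits citrate, fell by 0.22, a call lost without shCtrl_1 (adjusted p = 0.0652) or shUSP8_3 (0.0618). Slc25a1, the citrate carrier, named after its values were seen, fell by 0.24, a call lost without shCtrl_1 (0.0903), shCtrl_2 (0.0808) or shUSP8_3 (0.0947). The list had 3 genes lower without shCtrl_1 or shUSP8_3, and 1 of the 7 on log2(TPM + 1).

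At the branch from glycolysis, 11 of 14 genes were tested, 5 fell and 1 rose (median -0.18), against 14.9% and 17.8% of all genes tested. Hk3, a hexokinase of myeloid cells, rose by 0.25 (SE 0.05). Pfkfb2, which makes the activator of phosphofructokinase, fell by 0.55 (SE 0.06), and Pfkp, a phosphofructokinase, by 0.35 (SE 0.07). Gpi1, which takes glucose 6-phosphate down glycolysis, fell by 0.27 (SE 0.07), a call lost without shCtrl_3 (adjusted p = 0.0508) or shUSP8_3 (0.0607). The others that fell, named after their values were seen, were Hk2 (-0.20), a hexokinase, and Pfkl (-0.19), a phosphofructokinase. The Hk2 call was lost without shCtrl_1 (0.113), shCtrl_3 (0.0666) or shUSP8_3 (0.0884), and the Pfkl call without shCtrl_1 (0.130), shCtrl_2 (0.125), shCtrl_3 (0.113) or shUSP8_3 (0.199). The list had 3 genes lower without shCtrl_1, 2 without shCtrl_3 or shUSP8_3, and 1 on log2(TPM + 1).

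Most of the enzymes that spend NADPH rose. Of 23 tested, 14 rose and 1 fell (median 0.38), against 17.8% and 14.9% of all genes tested. The lower count was 0 with DESeq2 and without shCtrl_1, shCtrl_2, shCtrl_3 or shUSP8_2. Cybb, the catalytic subunit of the phagocyte oxidase, had 1777, 1584 and 1595 counts in shCtrl and 5643, 6149 and 5902 in shUSP8 (log2 fold change 1.77, SE 0.06). Gsr, glutathione reductase, was at 36.3, 35.7 and 29.3 TPM in shCtrl and 74.4, 89.0 and 87.5 TPM in shUSP8 (1.19, SE 0.06). Txnrd1, cytosolic thioredoxin reductase, rose by 1.10 (SE 0.05), and Ptgr1, which reduces reactive alkenals, by 3.14 (SE 0.09).

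NRF2, its partners and its usual targets were the neighbouring list with the highest median. Of 17 tested, 15 rose and 2 fell (median 1.10), against 17.8% and 14.9% of all genes tested. DESeq2 called 13 higher and 2 lower. The rises of Nfe2l2 (0.17), which encodes NRF2, Keap1 (0.25), Bach1 (0.26) and Mafg (0.15) were small. These genes were named after their values were seen. Each lost its call without shCtrl_2 (adjusted p = 0.0606, 0.0540, 0.109 and 0.104). The list shares Gsr, Txnrd1 and Nqo1 with the NADPH users. Gclm, the modifier subunit of glutathione synthesis, was at 30.9, 32.7 and 29.8 TPM in shCtrl and 241.4, 186.9 and 267.0 TPM in shUSP8 (log2 fold change 2.49, SE 0.07). Prdx1, a peroxidase fed by thioredoxin, rose by 2.12 (SE 0.07), and Srxn1, which repairs peroxiredoxins, by 1.54 (SE 0.05). Those that fell, named after their values were seen, were the small MAF partners Maff (-0.34) and Mafk (-0.27), neither called on log2(TPM + 1). Nqo1, also named afterwards, had 1, 0 and 1 counts in shCtrl and 45, 41 and 53 in shUSP8, too few in shCtrl for a fold change to be given.

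The SREBP system, which controls lipid synthesis and is known to act on Me1 and G6pdx, was split. Of 17 tested, 5 rose and 5 fell (median 0.03), against 17.8% and 14.9% of all genes tested. Fasn, fatty acid synthase, rose by 0.38 (SE 0.06) and Scap, the SREBP escort, by 0.22 (SE 0.05), though not on log2(TPM + 1) (adjusted p = 0.0732). Insig2, which retains SREBP in the reticulum, fell by 0.58 (SE 0.06) and Scd2, a desaturase, by 0.28 (SE 0.06), the latter not called on log2(TPM + 1) (0.1001). The others, named after their values were seen, were Mbtps2 (0.20), Acaca (0.17) and Hmgcs1 (0.17), which rose, and Acly (-0.22), Scd1 (-0.19) and Srebf1 (-0.17), which fell. Each of these 6 lost its call with at least 1 library left out. The number called higher was 3 without shCtrl_2 or shCtrl_3 and 2 without shUSP8_3. The number called lower was 2 without shCtrl_1 or shUSP8_3 and 3 without shCtrl_2.

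Nucleotide synthesis, which draws on ribose 5-phosphate, had 6 of 21 genes higher and 3 lower (median 0.07), against 17.8% and 14.9% of all genes tested. The lower count was 1 without shCtrl_2 or shCtrl_3. Gart (0.32, SE 0.06) and Atic (0.25, SE 0.05), enzymes of purine synthesis, rose, as did Adss (0.25, SE 0.05), which makes the precursor of AMP. Rrm2b, a ribonucleotide reductase subunit, fell by 0.37 (SE 0.08), a call lost on log2(TPM + 1) (adjusted p = 0.360). Paics, a purine enzyme named after its values were seen, fell by 0.18. The Paics call was lost without shCtrl_2 (adjusted p = 0.0773), shCtrl_3 (0.114) or shUSP8_3 (0.120).

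**Figure D4:**
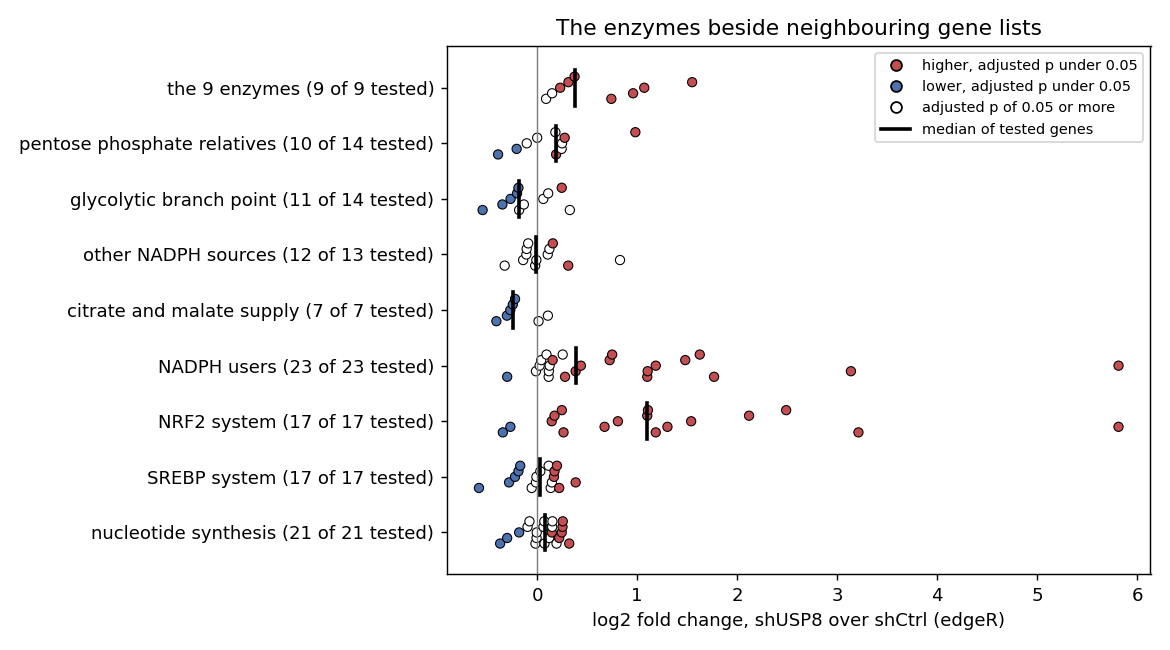
Log2 fold change (shUSP8 over shCtrl, edgeR) of each tested gene in the 9 enzymes and 8 neighbouring lists; red points were called higher, blue lower, white not called, and black bars are medians. The median is 0.37 for the 9 enzymes, 1.10 for the NRF2 system, 0.38 for NADPH users and -0.24 for citrate and malate supply, where no point is red.

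The genes whose 6 library values lay closest to those of G6pdx were Oasl1, Srxn1 and Gstm1, with predicted genes and clone names passed over. The measure was the mean absolute difference of log2 CPM, each gene set to 0 at its shCtrl mean, which was 0.020 for Oasl1, 0.025 for Srxn1 and 0.028 for Gstm1 over 6 libraries. Oasl1, an interferon-induced gene, went from 32.4 to 96.4 CPM, Srxn1 from 70.1 to 204.0 CPM and Gstm1, a glutathione transferase with close paralogs, from 18.01 to 51.9 CPM. With 2 groups of 3 libraries, this likeness mainly reflects an equal fold change.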

How the data were processed

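RNA from 6 libraries was measured as paired reads on a DNBSEQ instrument. The authors deposited expected counts (RSEM estimates of fragments per gene, not normalized, 7.16% of values not whole) and TPM (scaled by effective length and to a common total), each for 55291 symbols. RSEM, mm10 and DESeq2 1.28.1 appear in the submitters' processing notes, without roles; the aligner is not given in the sources used here. shCtrl_1 to shCtrl_3 are the columns headed WT, by genotype label and number, and shUSP8_1 to shUSP8_3 those headed KO, by elimination.

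Expected counts were rounded and tested over all genes in edgeR 4.0.16 (R 4.3.3; TMM, filterByExpr with minimum count 10 and total 15, robust quasi-likelihood F test, Benjamini-Hochberg adjustment). SE is the log2 fold change over the square root of F. The pipeline was tested on simulated data. Alternatives used DESeq2 1.42.0, limma 3.58.1 (voom; trend on TPM), other scalings, filters and effective-length offsets. They were applied to the neighbouring lists and ratios after the data had been seen. Copies were sought with blastn 2.17.0 (at least 90% identity over 100 bases). All 47 member transcripts were in GENCODE M21 (GRCm38); promoters came from RefSeq (GRCm38.p6).

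The rule for named genes takes Usp8, the 9 enzymes, up to 4 called genes of each neighbouring list by smallest p, Acp5, Ctsk, Csf1r and Cd68, and the 3 genes nearest in pattern to the enzyme with the smallest p (mean log2 CPM of at least 3); other genes were named as copies or overlaps of these, for their roles in a list, or after their values were seen, as the text says. Some genes of the lists are not reported here. Members and lists were chosen with earlier results of these data known. Libraries with equal numbers were not treated as paired, since the labels do not say that they are. Deviations of same-numbered libraries correlated at -0.0073, 0.078 and -0.054, which with 3 libraries per group does not settle whether they are pairs.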

Additional observations from a re-analysis of the deposited data

How the results depend on the processing

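G6pdx, Pgd, Taldo1, Tkt, Me1 and Idh1 kept their direction and their call under all 19 alternatives, with log2 fold changes of 1.46 to 1.62, 0.93 to 1.11, 0.71 to 0.89, 0.29 to 0.42, 1.03 to 1.23 and 0.36 to 0.55. Rpia lost its call under 12. The number of the 9 enzymes called higher was 6 to 7 with a library left out, 6 with DESeq2, effective-length offsets, no filter on low counts or unfiltered log2(TPM + 1), 8 on filtered TPM and 9 with library totals; none was called lower under any of them. The cause of these shifts was not tested.

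Over all genes, 1859 were lower with TMM factors. The number was 1172 with library totals, 469 on log2(TPM + 1), 459 on log2(TPM + 0.1), 380 on log2(TPM + 1) without a filter and 1226 with effective-length offsets. With a library left out it was 1239 (without shCtrl_2) to 2077, and 1675 to 2349 genes were higher. With a replicate block, 2021 genes were higher and 1690 lower, and 6 of the 9 enzymes were higher. The labels do not say whether libraries with equal numbers are pairs. Scaled with TMM factors, the shUSP8 sums were 872 TPM for the oxidative arm and 1044 TPM for the non-oxidative arm. Mbtps2 was reversed with effective-length offsets (-0.0062, adjusted p = 0.981). Counts of neighbouring lists moved as well: the SREBP system had 5 higher and 5 lower with TMM factors, 8 and 2 with library totals, and 2 and 3 with effective-length offsets. On log2(TPM + 1) the number lower was 1 for the SREBP system (5 with TMM factors), 1 for the glycolytic branch (5), 1 for citrate and malate supply (5), 0 for nucleotide synthesis (3) and 0 for the NRF2 system (2). Library totals gave 3 lower for the glycolytic branch and for citrate and malate supply. Effective-length offsets gave 3 higher for nucleotide synthesis (6 with TMM factors) and 3 lower for citrate and malate supply.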
